A study of Mus musculus with 16 samples.

Results

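The Hox genes of the mouse tail disc are described here as the 39 genes whose symbol is Hox followed by a cluster letter (a to d) and a paralogue number, out of 49315 genes in the expression table. They lie in 4 clusters: Hoxa on chromosome 6 with 11 genes, Hoxb on chromosome 11 with 10, Hoxc on chromosome 15 with 9 and Hoxd on chromosome 2 with 9. RNA was sequenced from the intervertebral discs, the fibrocartilage joints between vertebrae, of 16 mice, with 1 library per mouse, and levels are in TPM, a unit of transcript abundance scaled for gene length and depth. Each library pooled 4 tail discs of 1 mouse, from Co3/4 to Co6/7 between coccygeal vertebrae, cut from the cartilaginous endplate. There were 3 wild-type mice with intact discs, 4 wild-type mice with injured discs, 4 mice of the Adam8EQ genotype (called mutants here) with intact discs and 5 Adam8EQ mice with injured discs.

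For the wild-type mice the labels' genotype entry is incomplete and the titles gave the group; the series title names DBA as the strain set against the mutant. Adam8 encodes a metalloprotease-disintegrin of the cell surface. The labels do not describe the EQ allele, how or when discs were injured, or the age and sex of the mice, and the strain of the mutants is not given in the sources used here. Library names start with A8 for 4 mutant libraries (injured 1 and 2, intact 1 and 2), with M for 5 (injured 3 to 5, intact 3 and 4) and with D for the 7 wild-type libraries, so the naming and the genotype cannot be told apart. Adam8 itself was at 1.24 to 1.69 TPM in intact and 3.52 to 66.3 TPM in injured wild-type discs, and at 0.956 to 2.97 TPM in intact and 16.2 to 264.1 TPM in injured mutant discs. Its level does not check the genotype labels, since they do not say what the allele changes in the transcript.

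Hox genes encode homeodomain transcription factors that give cells a position along the head-to-tail axis. Within a cluster the genes are numbered from the 3′ to the 5′ end, and low-numbered genes are switched on earlier and farther towards the head than high-numbered ones, so that the highest-numbered groups mark the trunk end and tail. Their proteins bind DNA together with TALE-class cofactors (the Pbx, Meis and Pknox families), Polycomb and Trithorax complexes keep the clusters silent or active after the embryo, and connective tissue cells of the adult keep a Hox pattern of the place they came from.

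The clusters also hold microRNAs. They are shown because the miR-10 and miR-196 families sit between the Hox genes and are known to act on Hox transcripts. Within each family the seed (bases 2 to 8, in capitals) is the same on different chromosomes. The mature sequences below are RefSeq entries on GRCm38.p6, 5′ to 3′.
miR-10a-5p (Hoxb cluster, chr11:96317186-96317208, + strand): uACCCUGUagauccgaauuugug
miR-10b-5p (Hoxd cluster, chr2:74726074-74726096, + strand): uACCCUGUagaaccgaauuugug
miR-196a-5p (Hoxb and Hoxc clusters, chr15:102973365-102973386, + strand): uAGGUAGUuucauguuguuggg
miR-196b-5p (Hoxa cluster, chr6:52230129-52230150, - strand): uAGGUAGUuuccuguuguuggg
These libraries do not measure mature microRNAs. The rows named for the hairpin genes were at 40.5 to 94.3 TPM for Mir10a over the 16 libraries and 0 to 61.2 TPM for Mir10b, and Mir196b was listed at 0 in every library.

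Promoters are shown for Hoxd9 and Hoxd10, the members with the largest changes reported below, and for Hoxc4, the member with the smallest adjusted p. Each window runs from 250 bases before to 50 after a RefSeq transcript start on GRCm38.p6, read on the + strand, and capitals mark matches on either strand to the TATA box (TATAAA), the CCAAT box (CCAAT), the GC box (GGGCGG) or a joint Hox-Pbx site (TGATTNAT).
Hoxd9 (chr2:74697513-74697812): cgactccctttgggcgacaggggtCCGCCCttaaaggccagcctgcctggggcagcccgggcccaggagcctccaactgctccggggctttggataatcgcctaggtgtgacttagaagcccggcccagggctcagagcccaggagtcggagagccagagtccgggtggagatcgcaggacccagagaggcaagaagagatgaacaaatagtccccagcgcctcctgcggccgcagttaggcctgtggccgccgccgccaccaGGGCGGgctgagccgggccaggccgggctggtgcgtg
Hoxd10 (chr2:74691641-74691940): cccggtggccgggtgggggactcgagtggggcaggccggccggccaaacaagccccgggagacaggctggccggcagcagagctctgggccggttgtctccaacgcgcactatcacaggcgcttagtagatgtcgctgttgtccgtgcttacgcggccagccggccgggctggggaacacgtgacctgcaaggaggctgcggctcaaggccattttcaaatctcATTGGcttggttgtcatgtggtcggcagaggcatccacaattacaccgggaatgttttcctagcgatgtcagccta
Hoxc4 (chr15:103034145-103034444): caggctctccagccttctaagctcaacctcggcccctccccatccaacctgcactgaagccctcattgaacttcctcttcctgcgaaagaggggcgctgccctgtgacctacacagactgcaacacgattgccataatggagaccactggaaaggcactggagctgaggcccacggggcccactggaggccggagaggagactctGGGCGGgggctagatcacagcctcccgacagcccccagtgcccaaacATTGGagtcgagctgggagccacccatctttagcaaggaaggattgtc
Hoxd9 held 2 GC boxes, Hoxd10 1 CCAAT box, and Hoxc4 1 of each. A CCAAT box was in 15 of the 24 promoter entries found for 22 members and in 37.4% of all 32851 mouse promoters of the same length, and a GC box in 10 of 24 and 35.7%. TATA boxes were in 4 of 24 and 13.6%, and Hox-Pbx sites in 2 of 24 and 3.22%. Matches to an AP-1 site (TGANTCA, 1 of 24 and 7.81%), the NF-kappaB site (15 of 24 and 50.8%), a Cdx site (TTTATG, 5 of 24 and 11.9%) and a retinoid receptor half-site (AGGTCA, 7 of 24 and 16.3%) were counted as well. GC-box and NF-kappaB matches can overlap. The members' promoters were richer in G and C, with a median of 57.7% against 52.7% for all, and the matches are a description of letters only.

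The question for the intact disc was which Hox code adult tail disc tissue carries. Of the 39 members, 36 passed the filter on low values (1 TPM or more in 3 libraries or more), and Hoxb1, Hoxd1 and Hoxd12 did not, staying at or under 0.459 TPM in every library. Members of every paralogue group were present. In intact wild-type discs the 39 genes summed to 1109 ± 25.1 TPM (SD, n = 3), of which groups 4 to 8 held 52.8%, groups 9 to 13 held 40.2% and groups 1 to 3 held 7.03%. In intact mutant discs the sum was 1095 ± 43.8 TPM (SD, n = 4), with 52.2%, 41.5% and 6.24% in the same order.

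Hoxd8 and Hoxd9 had the highest levels, at 94.3 ± 6.43 and 91.3 ± 13.9 TPM in intact wild-type discs, and they did not differ beyond their spread. Hoxa7 (69.2 ± 6.74), Hoxa6 (66.1 ± 1.65) and Hoxa5 (63.1 ± 9.90) followed, again within each other's spread. Hoxb6 led its cluster at 47.4 ± 6.54 TPM. In the Hoxc cluster Hoxc10 (41.3 ± 3.96), Hoxc9 (40.9 ± 3.74) and Hoxc6 (40.2 ± 6.15) lay within each other's spread. Levels of the Hoxa, Hoxb and Hoxd genes were highest in the middle of each cluster. By mean over all libraries, Hoxd8 stood at the 90.4th percentile and Hoxd9 at the 88.4th percentile of the 24188 genes tested, against 13.4 for Hoxd3.

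Group 13, the most caudal, was uneven between clusters. Hoxa13, a regulator of the distal limb and urogenital tract, was at 36.5 ± 9.80 TPM in intact wild-type discs, and Hoxc13, known as a regulator of hair keratins, at 16.8 ± 0.853 TPM. Hoxb13, known for limiting tail length, was at 2.15 ± 0.670 TPM and Hoxd13, the digit-forming member, at 1.35 ± 0.237 TPM. Hoxc12 and Hoxc13 are known from hair follicles. The summed level of the keratinocyte and hair genes (5 in the table, 1 of them above a mean of 1 TPM) was 7.80 to 24.3 TPM over all 16 libraries. Nearly all of it was Krt10 (7.55 to 22.3 TPM), so the sum says little on hair follicles. Hoxc12 was at 24.1 to 68.4 TPM, and whether hair or skin cells added to it was not tested.

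**Figure D1:**
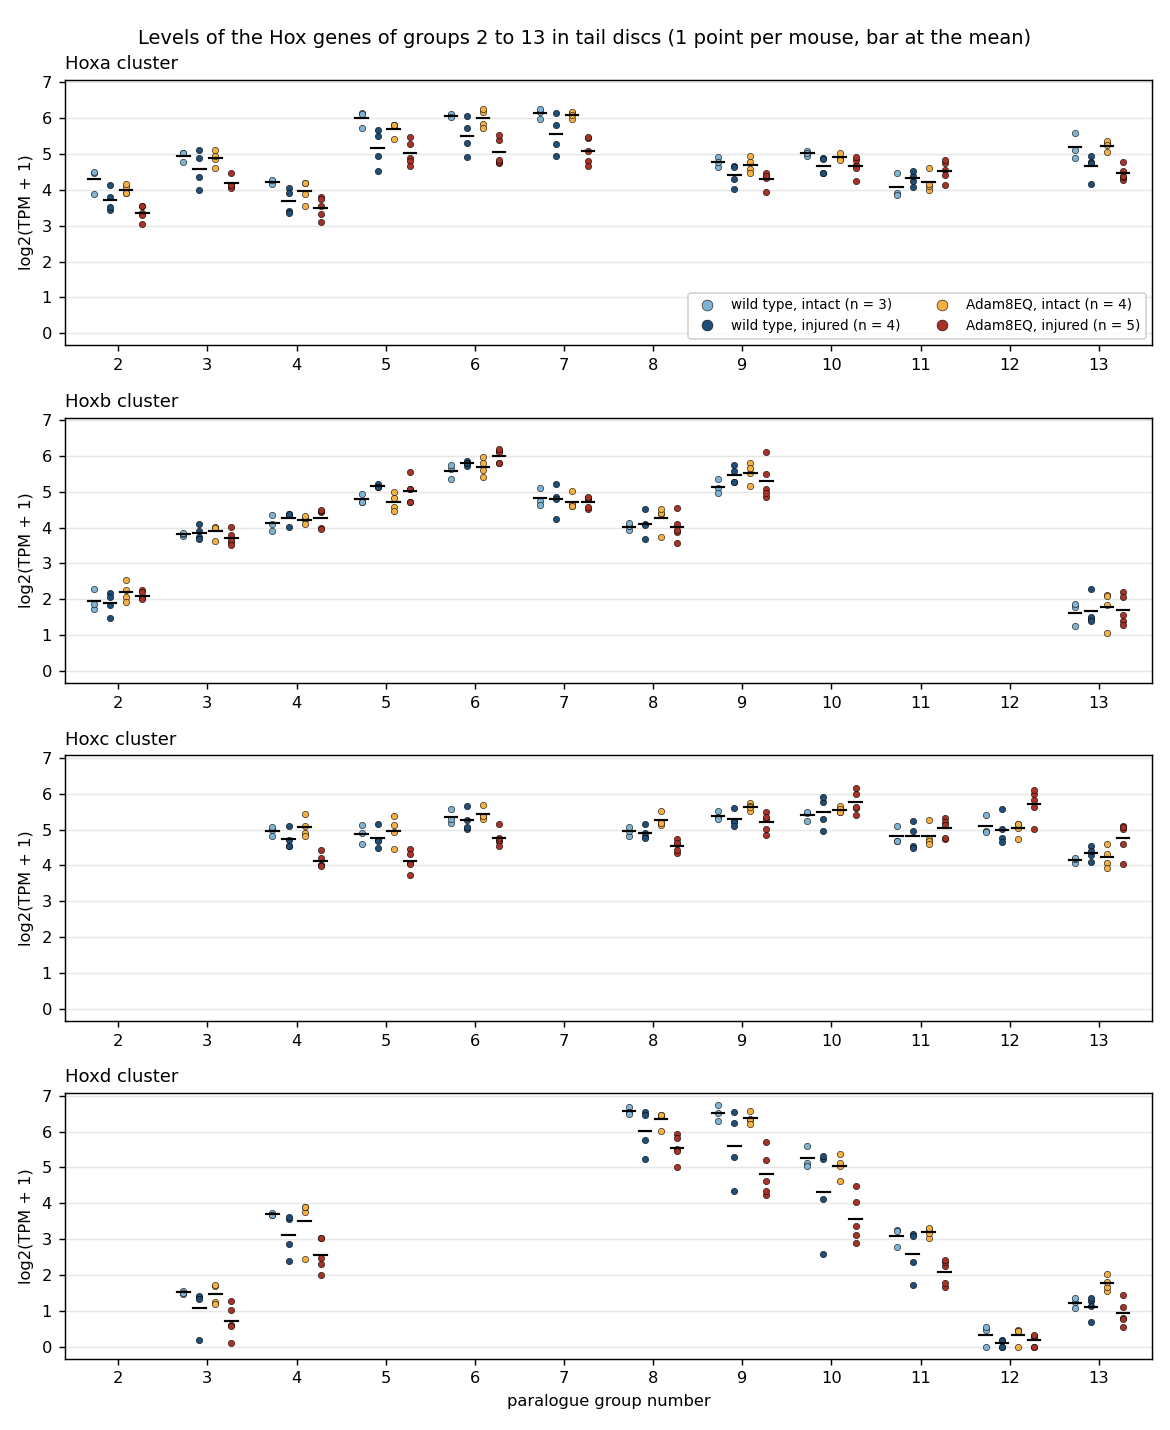
Level of the Hox genes of groups 2 to 13 as log2(TPM + 1) against its paralogue number, 1 panel per cluster, with 1 point per mouse and a bar at the mean of each of the 4 groups. Hoxd8 and Hoxd9 stand highest, Hoxd12 lies near 0, and injured mutant points lie under all intact mutant points for Hoxa7, Hoxd8 and Hoxd9, among others, and for no Hoxb gene.

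The tissue label was checked against disc genes. The 10 cartilage and inner disc genes (Acan, Col2a1 and others) summed to 25067 to 34368 TPM in intact discs of both genotypes, and all 10 were above a mean of 1 TPM. Libraries corresponded to 10196864 to 24837520 reads (median 13311894), as recovered from the TPM steps and exon lengths. Over them the tested members ranged from 1 implied read (Hoxd3 in its lowest library) to 1018 (Hoxb9 in its highest). Counting error is therefore large for Hoxd3 and Hoxd13 (4 to 26 implied reads), while Hoxd9 rested on 137 to 663.

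With injury in the mutants, 17 Hox genes fell and 1 rose among the 36 tested (limma on log2(TPM + 1), Benjamini-Hochberg adjusted p under 0.05 over all 24188 genes tested). Over all genes, 30.8% were called in that comparison, 17.7% as lower and 13.1% as higher. With median-of-ratios scaling the same test called 3 members higher (Hoxb6, Hoxc12 and Hoxc13) and 15 lower, and over all genes it called 7516, of which 3914 were higher. The median log2 change of the 36 members was -0.45, against -0.08 for all genes tested. The clusters differed in their counts: 6 of 11 Hoxa genes, 5 of 9 Hoxc genes and 6 of 7 tested Hoxd genes fell. None of the 9 tested Hoxb genes was called, and Hoxc12 alone rose. In Hoxb, 1 gene had an unadjusted p under 0.05 in limma, against 10158 of all 24188 genes. Under median-of-ratios scaling 1 Hoxb gene, Hoxb6, was called as higher. Every injured mutant lay below every intact mutant for 15 members, and above for none, against 15.3% and 12% of all genes.

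These are bulk tissue values, in which fewer cells that use a gene and less RNA of it per cell cannot be told apart. Marker genes of several cell types differed between injured and intact mutants. The 7 macrophage genes summed to 157 to 233 TPM in intact and 802 to 7796 TPM in injured mutants, and 6 of the 7 were called higher. The 10 cartilage and inner disc genes summed to 30466 to 34368 TPM in intact and 6261 to 18260 TPM in injured mutants, and 3 were called lower and 1 higher. Much of that fall was Chad, at 17291 to 18411 TPM in intact and 1238 to 4596 TPM in injured mutants. Acan overlapped, at 5926 to 6913 TPM in intact and 2426 to 7024 TPM in injured mutants. Hapln1 was higher in every injured mutant, at 573 to 631 TPM in intact and 986 to 2313 TPM in injured mutants. The 9 notochordal genes (T, Krt8, Krt19 and others) summed to 7027 to 14910 TPM in intact and 585 to 7028 TPM in injured mutants, and 4 of the 7 tested were called lower. Of the outer annulus and tendon genes 4 of 7 were called lower and 1 higher, and of the neutrophil genes 4 of 6 tested were called higher. Whether the cell makeup changed, and what part it had in the Hox changes, was not tested.

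Largest were the falls in the central and caudal Hoxd genes. Hoxd9 (ENSMUSG00000043342, chromosome 2, 74697727 to 74700208 on GRCm38), a group 9 gene of the lower trunk, was at 79.7, 79.9, 72.6 and 94.9 TPM in intact mutants and at 17.9, 19.1, 23.5, 51.5 and 35.8 TPM in injured mutants. The groups did not overlap, and injured mouse 4 came closest to the intact range. Hoxd9 fell by 1.54 ± 0.38 on the log2 scale (SE, limma adjusted p 0.00831). Its neighbour Hoxd10 (ENSMUSG00000050368, 74691924 to 74695105), one of the genes that keep lumbar vertebrae free of ribs, was at 32.1, 33.6, 23.4 and 40.1 TPM in intact and 9.22, 7.61, 6.41, 21.1 and 15.4 TPM in injured mutants. Again the groups were apart, with the lowest intact mouse 3 next to the highest injured mouse 4. Hoxd10 fell by 1.46 ± 0.47 on the log2 scale (SE, limma adjusted p 0.0289). Hoxd11 (ENSMUSG00000042499, 74679557 to 74687016), a sacral and limb gene, was at 7.20, 8.73, 7.998 and 8.97 TPM in intact and 3.77, 2.17, 2.40, 4.17 and 4.32 TPM in injured mutants. Here the intact mice lay close together and well above the injured ones. Hoxd11 fell by 1.11 ± 0.27 on the log2 scale (SE, limma adjusted p 0.00813). The promoter windows printed above belong to the first pair of these. Hoxd10 and Hoxd11 both overlap Gm28309 on the same strand, over 5.7% and 10.8% of their exons, so a part of either value is uncertain.

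Hoxd8 (ENSMUSG00000027102, 74704615 to 74707933), the highest member by mean, was at 86.8, 85.9, 63.6 and 87.3 TPM in intact and 44.5, 31.4, 42.9, 59.5 and 55.4 TPM in injured mutants. Intact mouse 3 was the low one, still above every injured mouse. Hoxd8 fell by 0.80 ± 0.24 on the log2 scale (SE, limma adjusted p 0.0209). Hoxd13 was at 1.96, 2.15, 3.09 and 2.50 TPM in intact and 1.74, 0.474, 0.740, 0.719 and 1.14 TPM in injured mutants. All its values were low, and the groups did not overlap. Hoxd13 fell by 0.83 ± 0.22 on the log2 scale (SE, limma adjusted p 0.0114). Hoxd4, a gene of the neck vertebrae, was at 12.6, 13.8, 4.41 and 13.98 TPM in intact and 2.99, 4.59, 3.95, 7.17 and 7.23 TPM in injured mutants. Intact mouse 3 sat within the injured range. Hoxd4 fell by 0.93 ± 0.33 on the log2 scale (SE, limma adjusted p 0.0478). Hoxd3 and Hoxd4 share 388 exon bases on the same strand and both overlap Gm28230, over 53.1% and 39.2% of their exons, so their values are uncertain. Hoxd3, at 0.073 to 1.42 TPM in injured and 1.27 to 2.29 TPM in intact mutants, differed by -0.74 ± 0.29 (SE, limma adjusted p 0.0672) and was not called.

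The Hoxd calls were not equally firm. Hoxd10 was no longer called when any of intact mutants 1, 2 or 4 or injured mutants 1, 2 or 3 was left out (limma adjusted p 0.05727 to 0.07556), nor Hoxd8 without intact mutant 1, 2 or 4 (0.05383 to 0.05572). Hoxd4 lost its call without any of 10 single mice (limma adjusted p 0.05561 to 0.1323), among them all 3 intact wild-type mice, which enter only through the shared estimate of the spread.

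**Figure D2:**
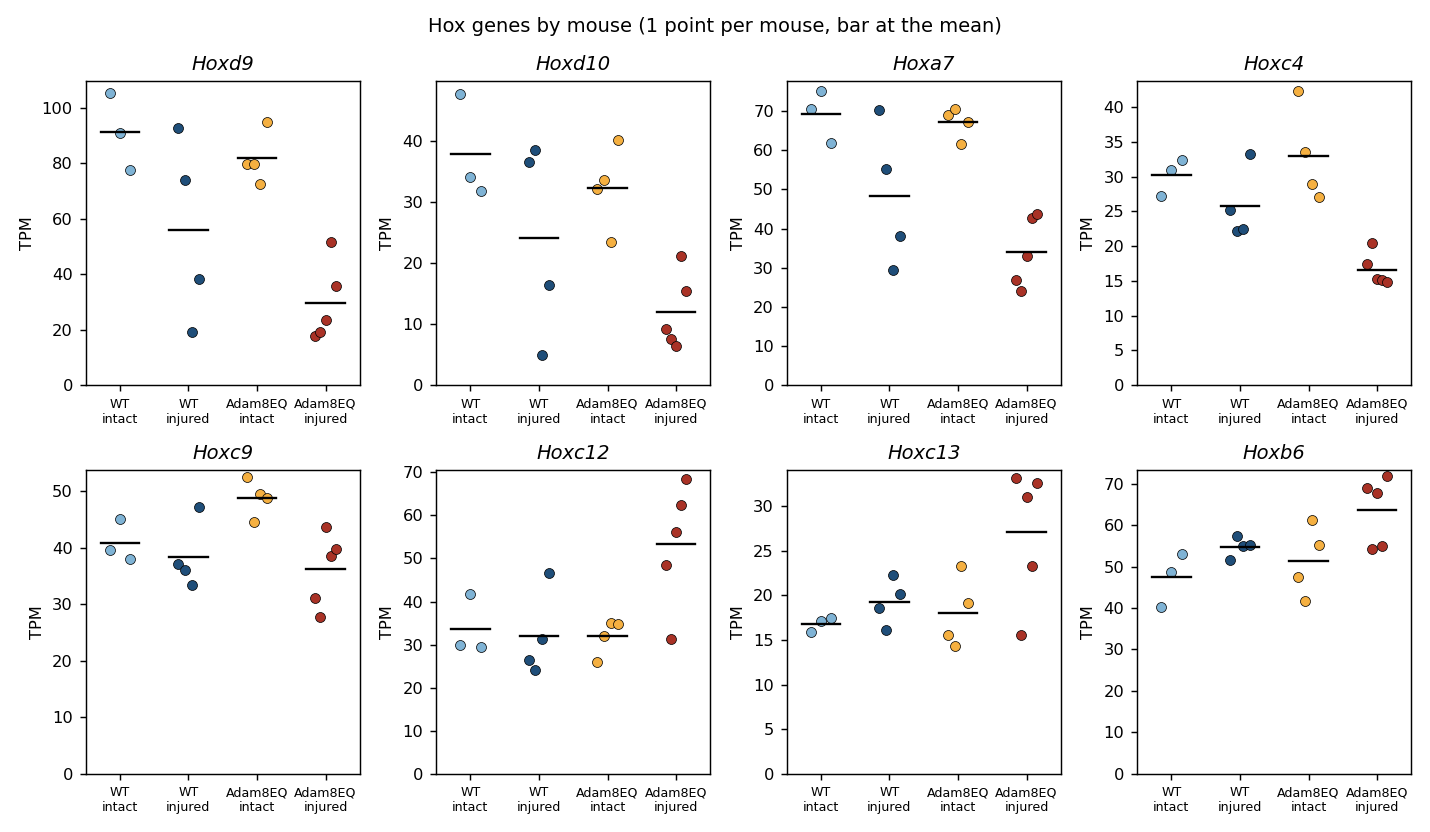
Level in TPM of 8 Hox genes, with 1 point per mouse, a bar at the group mean and the vertical axis starting at 0. Injured mutants lie below intact mutants for Hoxd9, Hoxd10, Hoxa7, Hoxc4 and Hoxc9, and the groups overlap for Hoxc12, Hoxc13 and Hoxb6.

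In the Hoxa cluster Hoxa2, Hoxa3, Hoxa5, Hoxa6, Hoxa7 and Hoxa13 fell. Hoxa7 (ENSMUSG00000038236, chromosome 6, 52214491 to 52221854), a thoracic patterning gene and the highest of its cluster, was at 69.1, 70.5, 61.8 and 67.3 TPM in intact and 26.9, 24.1, 33.1, 42.7 and 43.7 TPM in injured mutants. Every injured mouse was below every intact mouse. Hoxa7 fell by 0.99 ± 0.22 on the log2 scale (SE, limma adjusted p 0.00474). Hoxa6 (ENSMUSG00000043219, 52206288 to 52208722) was at 56.5, 71.2, 51.7 and 75.9 TPM in intact and 25.9, 26.3, 27.3, 40.9 and 44.8 TPM in injured mutants. Mice 4 and 5 were the highest of the injured group for both genes. Hoxa6 fell by 0.95 ± 0.22 on the log2 scale (SE, limma adjusted p 0.00585). Hoxa13 (ENSMUSG00000038203, 52257694 to 52260880) was at 37.6, 40.1, 36.8 and 32.3 TPM in intact and 26.2, 18.3, 19.4, 19.7 and 21.8 TPM in injured mutants. Here injured mouse 1 was the highest of its group and still under the lowest intact mouse. Hoxa13 fell by 0.78 ± 0.17 on the log2 scale (SE, limma adjusted p 0.00436).

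Toward the head end of the cluster, Hoxa5, a gene of the lower neck, shoulder and lung, was at 54.5, 55.3, 41.4 and 54.8 TPM in intact and 28.5, 27.1, 24.3, 43.7 and 38.1 TPM in injured mutants. Injured mouse 4 exceeded intact mouse 3. Hoxa5 fell by 0.68 ± 0.22 on the log2 scale (SE, limma adjusted p 0.0318), a call that was lost without any of intact mutants 1, 2 or 4 or injured mutants 1, 2 or 3 (limma adjusted p 0.06434 to 0.07923). Hoxa3, known from the throat and thymus, was at 28.2, 29.7, 23.2 and 33.8 TPM in intact and 16.7, 16.3, 15.6, 16.5 and 21 TPM in injured mutants. The groups were apart, and injured mouse 5 was the highest of its group. Hoxa3 fell by 0.70 ± 0.19 on the log2 scale (SE, limma adjusted p 0.0129). Hoxa2, the regulator of the second pharyngeal arch, was at 13.9, 15.8, 13.99 and 16.9 TPM in intact and 10.6, 9.28, 8.80, 10.7 and 7.24 TPM in injured mutants. These groups did not overlap either. Hoxa2 fell by 0.65 ± 0.17 on the log2 scale (SE, limma adjusted p 0.0115). Hoxa2 and Hoxa3 both overlap Gm28308 on the same strand, over 15.0% and 8.0% of their exons, so a part of either value is uncertain.

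Between Hoxa7 and Hoxa13 no member was called. Hoxa9 was at 22.8, 20.96, 26.4 and 29.7 TPM in intact and 20.04, 14.4, 19.1, 21.1 and 19.8 TPM in injured mutants, a difference of -0.38 ± 0.15 (SE, limma adjusted p 0.0678) that was not called. Hoxa10 was at 28.8, 28.3, 27.7 and 31.8 TPM in intact and 24.7, 18.1, 27.3, 23.6 and 29.1 TPM in injured mutants, a difference of -0.25 ± 0.13 (SE, limma adjusted p 0.164). Hoxa11 was at 15.04, 16.4, 23.3 and 16.9 TPM in intact and 25.8, 16.5, 22.6, 20.2 and 27.4 TPM in injured mutants, a difference of 0.31 ± 0.18 (SE, limma adjusted p 0.198). All 3 pairs of groups overlapped. Hoxa11 shares 35.0% of its exon bases with the antisense gene Hoxa11os, Hoxa7 shares 20.4% with Hoxaas3, and the strand setting of the counting is not given in the sources used here. Hoxa4 was not called, at a difference of -0.45 ± 0.19 (SE, limma adjusted p 0.0859).

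The Hoxc cluster split along its length. Log2 changes with injury in the mutants ordered by paralogue number were -0.94 for Hoxc4, -0.85 for Hoxc5, -0.66 for Hoxc6, -0.71 for Hoxc8, -0.44 for Hoxc9, 0.21 for Hoxc10, 0.22 for Hoxc11, 0.68 for Hoxc12 and 0.53 for Hoxc13. Groups 4 to 9 were all called lower and, beyond them, Hoxc12 was called higher. Spearman's rho between change and paralogue number was 0.97 over these 9 genes, a description across neighbouring genes of the same libraries. In the other clusters it was 0.05 (Hoxa, 11 genes), -0.23 (Hoxb, 9 genes) and -0.43 (Hoxd, 7 genes).

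**Figure D3:**
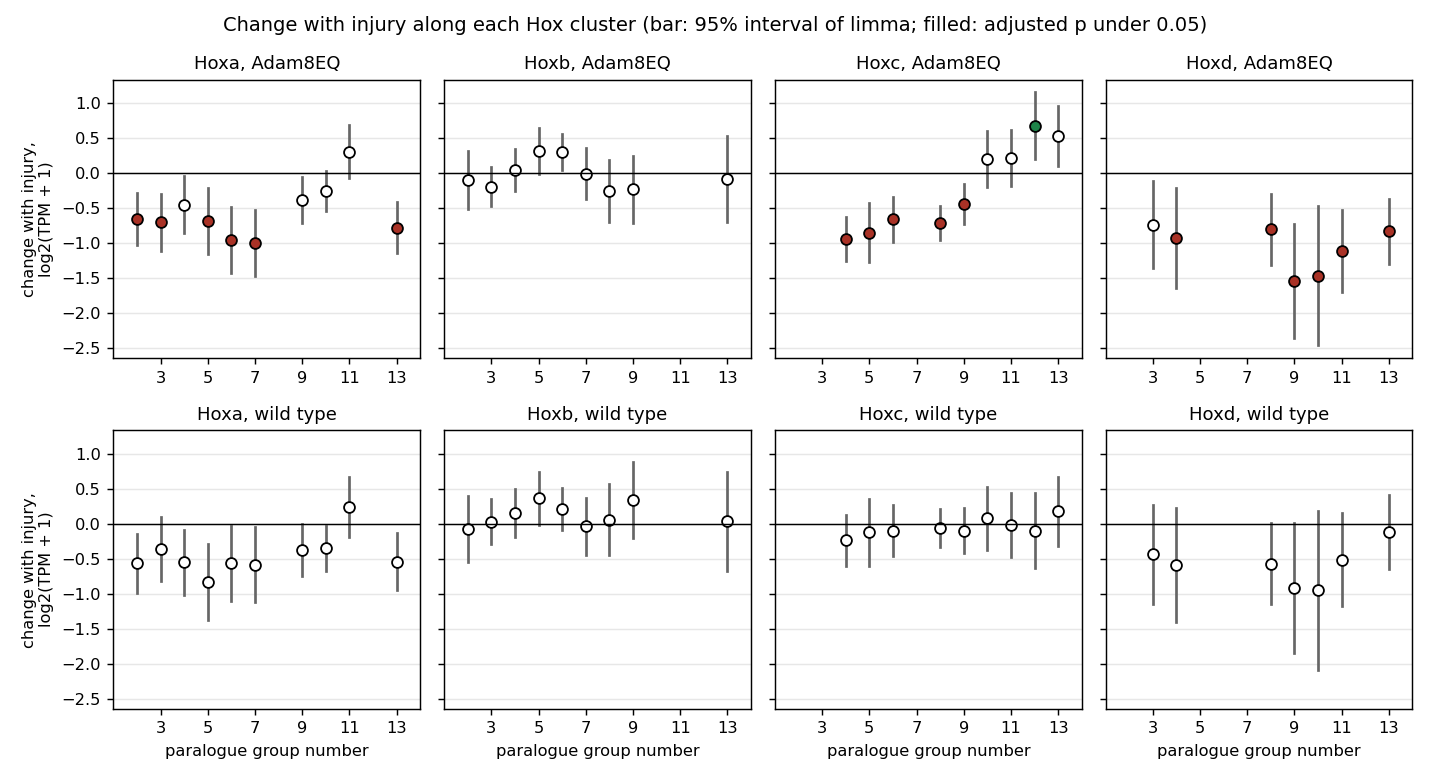
Change with injury in log2(TPM + 1) against paralogue number (groups 2 to 13), by cluster, for mutants in the upper row and wild type in the lower row, with bars for the 95% interval of limma and filled points for an adjusted p under 0.05. Filled points lie below 0 in Hoxa, Hoxc and Hoxd of the mutants and above 0 for Hoxc12, and no point is filled in the wild type.

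Hoxc4 (ENSMUSG00000075394, chromosome 15, 103018934 to 103036852), whose promoter is printed above, was at 42.4, 33.6, 28.9 and 27.03 TPM in intact and 17.4, 20.4, 15.3, 15.1 and 14.9 TPM in injured mutants. The groups were apart and the injured mice lay in a narrow range. Hoxc4 fell by 0.94 ± 0.15 on the log2 scale (SE, limma adjusted p 0.000918). Hoxc8 (ENSMUSG00000001657, 102990607 to 102994111), a gene of the thorax, was at 44.6, 36.1, 34.02 and 35.6 TPM in intact and 25.7, 19.5, 20.6, 23.2 and 23.9 TPM in injured mutants. Its groups were also apart. Hoxc8 fell by 0.71 ± 0.11 on the log2 scale (SE, limma adjusted p 0.000921). Hoxc4 and Hoxc8 were the only 2 members with an adjusted p under 0.05 in limma in all 29 alternative fits. Neither reached a log2 change of 1 in the main fit. Hoxc5 was at 40.3, 34, 21.05 and 29.6 TPM in intact and 21.01, 19.1, 12.3, 15.8 and 15.4 TPM in injured mutants. Intact mouse 3 lay only just above injured mouse 1, so the groups were barely apart. Hoxc5 fell by 0.85 ± 0.20 on the log2 scale (SE, limma adjusted p 0.00621). It shares 166 exon bases with Hoxc10 on the same strand, so a part of either value is uncertain.

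Hoxc6, a thoracic gene, was at 50.1, 40.5, 37.9 and 40.9 TPM in intact and 24.8, 24.8, 26.4, 22.1 and 34.8 TPM in injured mutants. Injured mouse 5 came nearest to the intact range. Hoxc6 fell by 0.66 ± 0.15 on the log2 scale (SE, limma adjusted p 0.00536). Hoxc9, of the lower thorax, was at 52.6, 44.5, 49.5 and 48.8 TPM in intact and 31.2, 27.8, 43.7, 38.6 and 39.7 TPM in injured mutants. Injured mouse 3 lay just under the lowest intact mouse. Hoxc9 fell by 0.44 ± 0.13 on the log2 scale (SE, limma adjusted p 0.0210), and it was not called under median-of-ratios scaling (limma adjusted p 0.0660) or without intact mutant 1 or injured mutant 1 (0.0602 and 0.0505).

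At the caudal end, Hoxc12 (ENSMUSG00000050328, 102936757 to 102938609) was at 25.9, 32.03, 34.97 and 34.9 TPM in intact and 48.4, 31.4, 56.1, 62.3 and 68.4 TPM in injured mutants. Of the injured mice 4 lay above all intact ones, and injured mouse 2 lay within the intact range. Hoxc12 rose by 0.68 ± 0.22 on the log2 scale (SE, limma adjusted p 0.0305). The call was lost without intact mutant 1 or 2 or injured mutant 3, 4 or 5 (limma adjusted p 0.06104 to 0.09045). Hoxc13 (ENSMUSG00000001655, 102921103 to 102928814) was at 15.6, 14.3, 23.3 and 19.1 TPM in intact and 33.2, 15.5, 31.1, 23.3 and 32.6 TPM in injured mutants. Injured mouse 2 was again the low one and the groups overlapped. The difference of 0.53 ± 0.20 (SE, limma adjusted p 0.0566) was not called here but was with median-of-ratios scaling (limma adjusted p 0.0305) and with quantile normalization (0.0491).

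Hoxc10 and Hoxc11, next in the row, were not called. Hoxc10 was at 49.2, 43.7, 46.4 and 44.3 TPM in intact and 71.1, 47.5, 62.5, 41.3 and 48.1 TPM in injured mutants, a difference of 0.21 ± 0.19 (SE, limma adjusted p 0.428). Hoxc11 was at 25.6, 24.4, 37.3 and 23.3 TPM in intact and 38.9, 25.6, 36.2, 26.4 and 34.3 TPM in injured mutants, a difference of 0.22 ± 0.19 (SE, limma adjusted p 0.406). In both genes the intact and injured ranges overlapped. Within a library the ratio of Hoxc12 to Hoxc4 does not depend on scaling between libraries. It was 0.611, 0.954, 1.21 and 1.29 in intact mutants and 2.78, 1.54, 3.68, 4.14 and 4.59 in injured mutants, with no overlap. These 2 genes had the largest rise and fall of the cluster in this comparison, so the ratio adds no support of its own. In wild-type mice the ratio was 1.10, 1.35 and 0.908 in intact and 1.05, 1.08, 1.39 and 1.40 in injured discs, and there the groups overlapped. The genotypes were not tested against each other on this ratio.

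No Hoxb gene was called, with log2 differences from -0.26 (Hoxb8) to 0.32 (Hoxb5). Over the 29 alternative fits, Hoxb6 was called in 5 and Hoxb9 in 1. Hoxb6 (ENSMUSG00000000690, chromosome 11, 96292476 to 96301569), the highest of the cluster, was at 47.6, 41.8, 61.2 and 55.2 TPM in intact and 69.1, 54.4, 67.8, 54.99 and 71.8 TPM in injured mutants. The injured range reached higher but overlapped the intact one. Its difference was 0.31 ± 0.12 (SE, limma adjusted p 0.0716), with a 95% interval from 0.04 to 0.57. Hoxb9 was at 44.8, 34.8, 54.4 and 49.4 TPM in intact and 68.4, 44.2, 32.8, 27.97 and 30.1 TPM in injured mutants. Injured mouse 1 was the highest of all and mice 3, 4 and 5 were below every intact mouse. The difference of -0.23 ± 0.22 (SE, limma adjusted p 0.466) was not called. Hoxb13 was at 1.10, 2.57, 3.35 and 3.23 TPM in intact and 3.60, 3.20, 1.94, 1.62 and 1.42 TPM in injured mutants, a difference of -0.08 ± 0.29 (SE, limma adjusted p 0.865). The wide intervals of Hoxb9 (-0.70 to 0.25) and Hoxb13 (-0.70 to 0.54) would hold a change of the size seen for Hoxa2. For both genes injured mutants 3, 4 and 5, named with M, were lower than injured mutants 1 and 2, named with A8. Over the alternative fits the difference ran from -0.76 to 0.47 for Hoxb9 and from -0.69 to 0.68 for Hoxb13. The part of the naming in these values was not tested. Hoxb3 and Hoxb2 share 52.9% and 27.3% of their exon bases with the antisense gene Hoxb3os.

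Summed by cluster, the Hoxd level was 221.8, 226.8, 176.8 and 250.3 TPM in intact mutants and 80.9, 65.9, 80.0, 145.9 and 120.5 TPM in injured mutants. The Hoxb level was 196.3, 169.4, 235.3 and 218.7 TPM in intact and 266.9, 195.6, 215.2, 175.9 and 217.0 TPM in injured mutants. The Hoxd groups were apart and the Hoxb groups overlapped. The ratio of the Hoxd to the Hoxc sum within a library was 0.641, 0.748, 0.564 and 0.825 in intact mutants and 0.260, 0.284, 0.263, 0.544 and 0.386 in injured mutants. In the wild type it was 1.07, 0.793 and 0.722 in intact and 0.997, 0.891, 0.246 and 0.341 in injured discs. The notochordal sum was lower in the same 2 injured wild-type mice, at 11140, 9221, 3047 and 4431 TPM in injured mice 1 to 4. That sum was also the lowest of the intact mutants in mouse 3 (7027 TPM), which had the lowest Hoxd sum among them. In injured mutants 1 to 5 the notochordal sum was 585, 3953, 1154, 7028 and 3991 TPM. There both sums were highest in mouse 4, but the Hoxd sum was lowest in mouse 2 and the notochordal sum in mouse 1. Car3 made up 3696 to 9947 TPM of the notochordal sum in intact discs. The part of the notochordal genes in the Hoxd values was not tested.

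**Figure D4:**
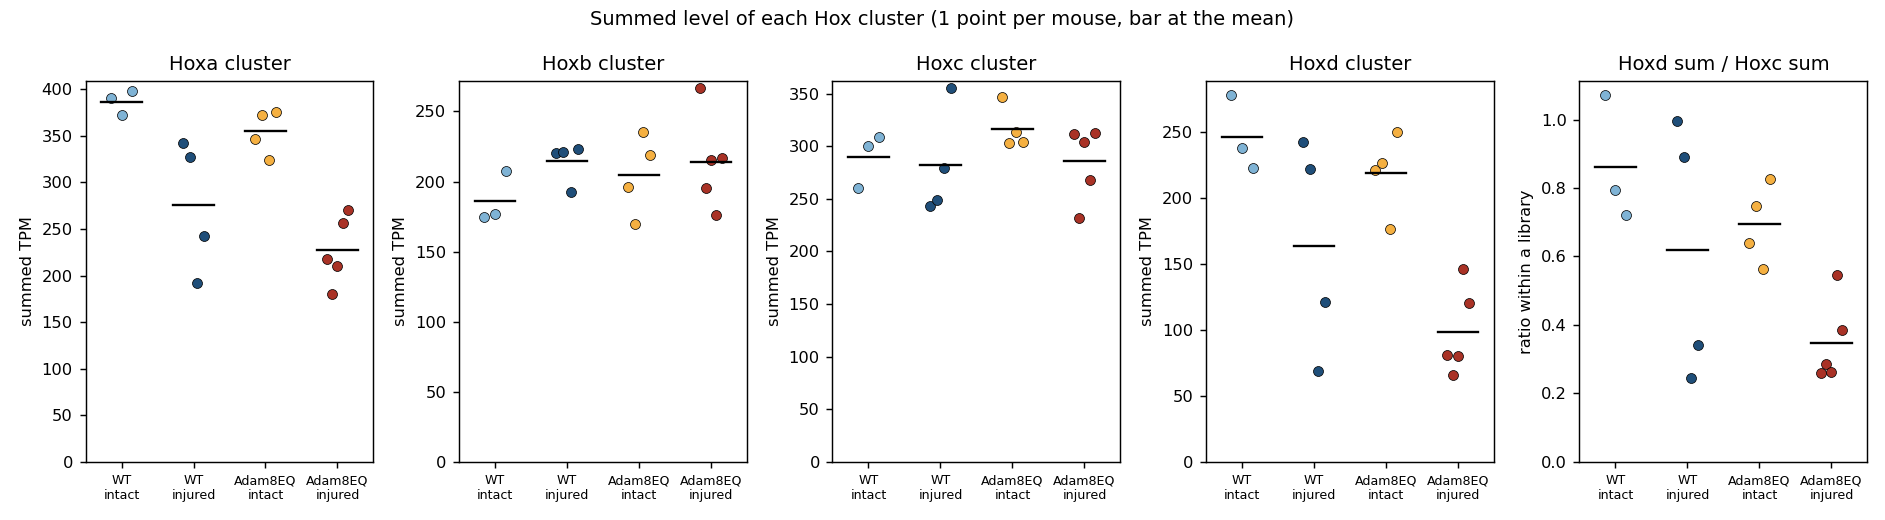
Summed TPM of each Hox cluster, and the ratio of the Hoxd to the Hoxc sum within a library, with 1 point per mouse and a bar at the group mean. The Hoxa and Hoxd sums of injured mutants lie below all intact mutants, the Hoxb and Hoxc sums overlap, and injured wild-type mice fall into a higher and a lower pair for Hoxa and Hoxd.

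Summed over the 4 clusters, group 9 was at 201.5 ± 17.4 TPM in intact mutants (SD, n = 4) and 125.4 ± 13.8 TPM in injured mutants (SD, n = 5), and group 7 at 92.7 ± 1.79 and 59.5 ± 9.90 TPM. Group 12, which is nearly all Hoxc12, was at 32.2 ± 4.42 and 53.5 ± 14.4 TPM, and group 13 at 59.8 ± 4.66 and 51.6 ± 10.5 TPM. Within group 10, the ratio of Hoxd10 to Hoxc10 was 0.708 ± 0.170 (SD, n = 4) in intact and 0.245 ± 0.171 (SD, n = 5) in injured mutants, with ranges of 0.505 to 0.905 and 0.102 to 0.512 that overlapped.

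Injury in the wild type, the control for the genotype, gave no called Hox gene. In limma 0 of the 36 tested members passed, and the smallest adjusted p was 0.162 (Hoxa5). Voom on implied reads also called 0. In limma 8 members, all in the Hoxa cluster, had an unadjusted p under 0.05. That count is given without the share of all genes and is not read as a result about the members. Over all genes, 0.116% were called, 0.00827% as lower and 0.107% as higher. The median log2 change of the members was -0.12, against 0.01 for all genes tested. Groups did not overlap for 5 members that were lower (Hoxa4, Hoxa5, Hoxa10, Hoxd3 and Hoxd4) and 1 that was higher (Hoxb5), against 6.34% and 9.22% of all genes.

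The injured wild-type mice differed among themselves. Hoxd9 was at 105, 91.1 and 77.5 TPM in intact and 92.8, 74.02, 19.3 and 38.2 TPM in injured wild-type discs. Injured mice 1 and 2 lay near the intact values and mice 3 and 4 far below. Hoxd10 was at 47.7, 34.1 and 31.8 TPM in intact and 36.5, 38.5, 4.98 and 16.5 TPM in injured discs, with mice 3 and 4 again the low ones. Hoxd8 was at 102, 91.7 and 89.5 TPM in intact and 91.7, 87.7, 36.99 and 53.3 TPM in injured discs, and Hoxd11 at 8.62, 5.89 and 8.29 and 7.83, 7.47, 2.29 and 4.18 TPM. The macrophage sum was 255 and 392 TPM in injured mice 1 and 2 and 3618 and 2386 TPM in mice 3 and 4, against 163 to 201 TPM in intact wild-type discs; its part in the Hox values was not tested. The differences were -0.91 ± 0.44 for Hoxd9, -0.95 ± 0.53 for Hoxd10, -0.57 ± 0.27 for Hoxd8 and -0.51 ± 0.31 for Hoxd11 (SE, limma adjusted p 0.298, 0.366, 0.300 and 0.402). The interval for Hoxd9 ran from -1.84 to 0.02 and so includes the size seen in mutants.

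Among the Hoxa genes, Hoxa5 was at 69.8, 51.7 and 67.8 TPM in intact and 44.5, 49.7, 22.1 and 29.5 TPM in injured wild-type discs, all injured mice below all intact ones, a difference of -0.83 ± 0.25 (SE, limma adjusted p 0.162). Hoxa7 was at 70.6, 75.2 and 61.9 and 70.2, 55.4, 29.5 and 38.1 TPM, and Hoxa6 at 66.4, 67.6 and 64.3 and 65.6, 52.1, 29.3 and 38.7 TPM, with injured mouse 1 inside the intact range for each. Hoxa13 was at 28.4, 33.6 and 47.4 and 26.5, 25.8, 16.8 and 29.8 TPM, where injured mouse 4 overlapped the intact mice. Hoxa2 was at 21.2, 13.8 and 21.6 and 12.8, 16.7, 9.84 and 10.5 TPM, and Hoxa3 at 31.7, 26.2 and 31.4 and 28.5, 33.4, 14.98 and 19.3 TPM. Both sets overlapped, through injured mouse 2 for Hoxa2 and injured mice 1 and 2 for Hoxa3. Hoxa9 was at 29.2, 23.99 and 26.5 and 24.2, 24.1, 15.3 and 18.6 TPM, and Hoxa10 at 29.7, 33.2 and 31.7 and 28.7, 28.2, 21.2 and 21.02 TPM. Hoxa11 ran the other way, at 13.95, 21.2 and 13.4 TPM in intact and 15.96, 18.1, 19.9 and 22.2 TPM in injured discs, with overlap.

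In the Hoxc cluster the wild-type differences were small at every position, from -0.23 (Hoxc4) to 0.18 (Hoxc13). Hoxc4 was at 27.2, 30.96 and 32.3 TPM in intact and 25.2, 22.2, 22.5 and 33.3 TPM in injured wild-type discs, and Hoxc8 at 27.5, 30.4 and 32.7 and 26.9, 28.9, 26.2 and 34.6 TPM. Injured mouse 4 was above every intact mouse for both genes. Hoxc12 was at 29.96, 41.8 and 29.3 and 26.4, 24.1, 31.3 and 46.6 TPM, and Hoxc13 at 15.9, 17.1 and 17.5 and 18.6, 16.1, 22.3 and 20.2 TPM. Hoxc5 was at 23.2, 29.1 and 33.9 and 25.3, 24.6, 21.4 and 34.9 TPM, Hoxc6 at 35.1, 38.5 and 47.03 and 31.6, 37.4, 32.9 and 49.2 TPM and Hoxc9 at 39.7, 45.1 and 37.99 and 37.1, 36.1, 33.3 and 47.3 TPM. Hoxc10 was at 36.8, 42.8 and 44.3 and 29.8, 38.4, 53.2 and 59.3 TPM and Hoxc11 at 24.5, 24.6 and 33.4 and 22.3, 21.4, 36.7 and 30.3 TPM. Each of these intact and injured ranges overlapped. Along the cluster, Spearman's rho of change with paralogue number was 0.80 over 9 genes, a description as before.

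Hoxd4 was at 12.2, 11.7 and 11.8 TPM in intact and 10.7, 11.2, 4.29 and 6.26 TPM in injured discs, the groups apart by a narrow margin, and Hoxd13 at 1.09, 1.39 and 1.56 and 1.42, 1.19, 0.607 and 1.58 TPM. Hoxb6 was at 40.3, 48.8 and 53.1 and 51.7, 57.3, 55.1 and 55.2 TPM, Hoxb9 at 33.1, 30.04 and 39.9 and 47.3, 37.8, 37.9 and 52.4 TPM and Hoxb13 at 1.39, 2.42 and 2.64 and 1.74, 1.85, 1.64 and 3.93 TPM. The Hoxb ranges overlapped, and none of these 5 genes was called.

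Genotype in intact discs was compared next, to ask whether mutants start from the same Hox levels. No member was called in limma (0 of 36), against 0.0165% of all genes (0.00413% higher and 0.0124% lower). Voom on implied reads also called 0. In limma 3 members had an unadjusted p under 0.05, a count given without the share of all genes. The median log2 difference of mutant against wild type was 0.02, against -0.01 over all genes tested. Groups did not overlap for 2 members on each side, against 2.77% of all genes on the higher and 3.41% on the lower side. Members with an unadjusted p under 0.05 included Hoxc8 (0.30 ± 0.13) and Hoxd13 (0.54 ± 0.25, both SE), and each had a limma adjusted p of 1.

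Genotype in injured discs asked whether the injured mutants differed from the injured wild type. Again no member was called in limma (0 of 36), against 0.918% of all genes (0.728% lower and 0.19% higher). Voom on implied reads also called 0. In limma 8 members had an unadjusted p under 0.05, a count given without the share of all genes. The smallest adjusted p was 0.0679, for Hoxc4 (-0.60 ± 0.15, SE), whose 5 injured mutant values all lay below the 4 injured wild-type values. Hoxc5 (-0.63 ± 0.20, SE, limma adjusted p 0.107) and Hoxc8 (-0.35 ± 0.11, SE, limma adjusted p 0.113) did not overlap either. In all, 3 members were lower without overlap and 0 higher, against 3.86% and 0.905% of all genes. Hoxc12 was 0.71 ± 0.22 higher in mutants (SE, limma adjusted p 0.107), with overlap. This comparison depended on single mice: without injured wild-type mouse 3, 6 members were called lower (Hoxa3, Hoxc4, Hoxc5, Hoxd8, Hoxd9 and Hoxd10), and without injured mutant 2, Hoxc4 was called lower and Hoxc12 higher. Calls over all 24188 genes rose as well, from 222 to 2253 without injured wild-type mouse 3 and to 675 without injured mutant 2.

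The difference between the injury responses of the 2 genotypes was tested by the interaction term. No member passed in limma (0 of 36, with 6 at an unadjusted p under 0.05 and 0 in voom on implied reads), nor did any of the 24188 genes (0%). The 6 were Hoxc4, Hoxc5, Hoxc6, Hoxc8, Hoxc12 and Hoxd13. Their count is given without the share of all genes and is not read as a result about the members. The smallest limma adjusted p was 0.488, for Hoxc8, with a difference of injury changes, mutants minus wild type, of -0.65 ± 0.17 (SE) on the log2 scale. That Hox genes were called in the mutants and not in the wild type is therefore not shown to be a difference between genotypes.

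Genes that work with or on the Hox clusters were read from lists, and none of them was called in the other 4 comparisons. Their counts with injury in mutants stand beside 30.8% of all genes called, 17.7% lower and 13.1% higher. Of the 9 TALE cofactors, 3 fell and 1 rose with injury in mutants (44.4% called, median log2 change -0.44). Meis1 was at 18.5, 19.6, 16.6 and 16.5 TPM in intact and 6.73, 7.23, 7.09, 8.64 and 8.75 TPM in injured mutants, with no overlap, and fell by 1.11 ± 0.16 on the log2 scale (SE, limma adjusted p 0.000663). Pknox2 was at 21.02, 22.03, 27.1 and 37.6 TPM in intact and 5.21, 6.32, 9.24, 17.1 and 14.7 TPM in injured mutants, also apart, and fell by 1.36 ± 0.36 on the log2 scale (SE, limma adjusted p 0.0111). Pbx3 fell by 0.53 ± 0.18 on the log2 scale (SE, limma adjusted p 0.0375) and Pknox1 rose by 0.30 ± 0.11 on the log2 scale (SE, limma adjusted p 0.0468). Pbx2, the highest cofactor, ranged from 27.2 to 36.6 TPM over all 16 libraries and was not called.

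Of the 19 Polycomb genes, which encode the complexes that hold Hox genes silent, 4 fell and 2 rose, a share of 31.6% that is near the 30.8% of all genes (median log2 change -0.19). Cbx7, a reader of the repressive histone mark, was at 69.97, 71.1, 52.5 and 52.4 TPM in intact and 12.6, 19.8, 14.6, 27.98 and 19.6 TPM in injured mutants. The groups were far apart, and Cbx7 fell by 1.69 ± 0.22 on the log2 scale (SE, limma adjusted p 0.000394). Cbx6 fell by 0.90 ± 0.17 on the log2 scale (SE, limma adjusted p 0.00184) and Ezh1, the highest of the list and a histone methyltransferase, by 0.52 ± 0.12 on the log2 scale (SE, limma adjusted p 0.00619). Ezh1 was at 101, 101, 87.98 and 103 TPM in intact and 61.03, 58.8, 70.03, 71.02 and 80.3 TPM in injured mutants. Phc2 and Phf19 were the genes that rose.

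Of the 10 Trithorax genes and H3K27 demethylases, 2 fell and 1 rose, a share of 30% that is also near that of all genes (median log2 change -0.13). Kmt2a, a methyltransferase that keeps Hox genes active, was at 129, 118, 94.6 and 113 TPM in intact and 75.1, 79.99, 81.6, 89.4 and 88.96 TPM in injured mutants and fell by 0.44 ± 0.09 on the log2 scale (SE, limma adjusted p 0.00361). Psip1 fell by 0.39 ± 0.11 on the log2 scale (SE, limma adjusted p 0.0145) and Wdr5 rose by 0.32 ± 0.11 on the log2 scale (SE, limma adjusted p 0.0349). Kdm6b, the highest of the list, ranged from 93.8 to 166 TPM over the 16 libraries and was not called. Of the retinoid genes 1 of 7 tested was called: Cyp26b1, which degrades retinoic acid, an inducer of Hox genes, was at 28.6, 27.6, 70.7 and 39.4 TPM in intact and 104, 154, 145, 72.8 and 81.7 TPM in injured mutants and rose by 1.44 ± 0.45 on the log2 scale (SE, limma adjusted p 0.0250). The receptor Rarg was the highest retinoid gene, at 120 to 196 TPM.

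**Figure D5:**
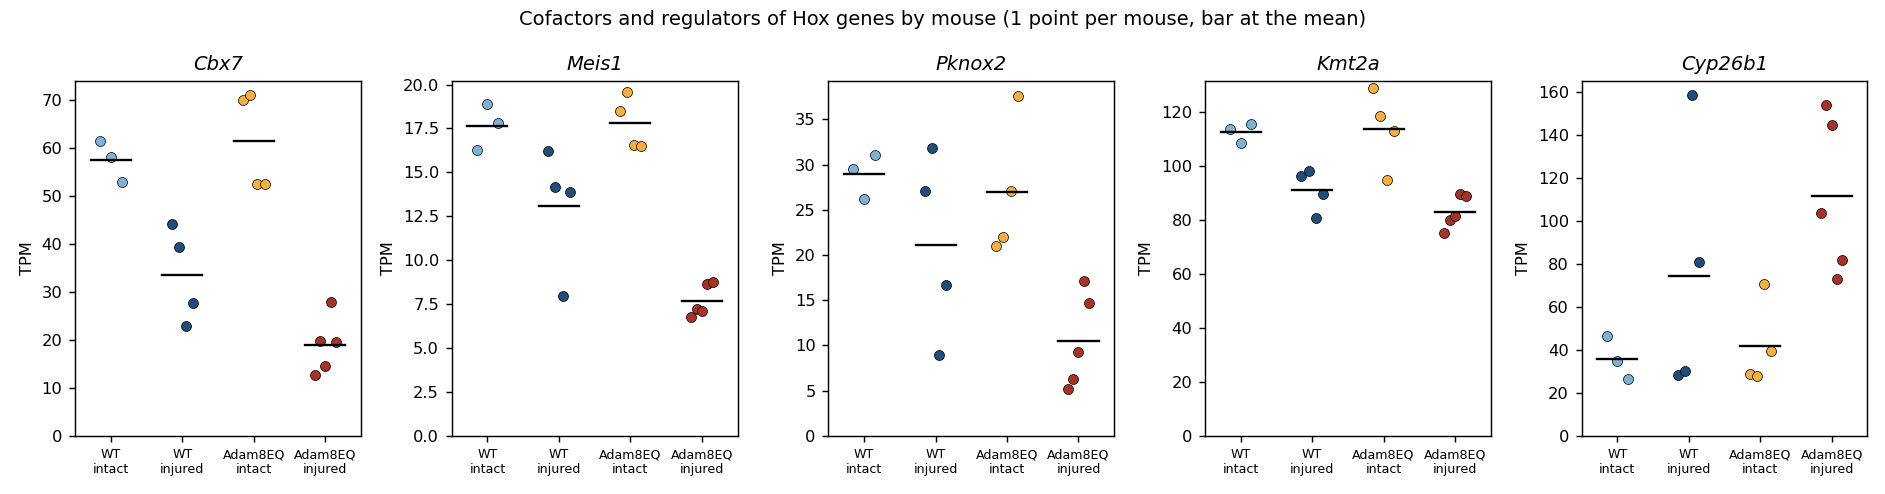
Level in TPM of 5 cofactors or regulators of Hox genes, with 1 point per mouse, a bar at the group mean and the vertical axis starting at 0. Injured mutants lie below intact mutants for Cbx7, Meis1, Pknox2 and Kmt2a and above them for Cyp26b1.

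Of the 13 axial regulators that set up the trunk and tail in the embryo, only 4 reached the level for testing, and the Cdx genes were among the 9 that did not. T, the brachyury gene of tail bud and notochord, was at 2634, 2828, 1789 and 2916 TPM in intact and 21.5, 593, 115, 1568 and 721 TPM in injured mutants, fell by 3.15 ± 0.91 on the log2 scale (SE, limma adjusted p 0.0178) and is also counted in the notochordal list. Tbx6 rose by 0.84 ± 0.26 on the log2 scale (SE, limma adjusted p 0.0227). Of the noncoding RNAs and Evx genes of the clusters, 15 of 21 were tested and 1 fell: Hoxd3os1, antisense to Hoxd3 and Hoxd4, was at 17.2, 17.5, 11.6 and 16.2 TPM in intact and 5.35, 4.71, 3.30, 7.87 and 9.39 TPM in injured mutants and fell by 1.28 ± 0.31 on the log2 scale (SE, limma adjusted p 0.00734). Hoxd3os1 shares 347 exon bases with each of Hoxd3 and Hoxd4 on the opposite strand. The strand setting of the counting is not given, so a part of its value is uncertain. Mir10a was the highest row of the list of noncoding RNAs and Evx genes. Of 20 limb and mesenchyme patterning genes 9 were tested. Tbx15, the highest, rose by 0.43 ± 0.14 on the log2 scale (SE, limma adjusted p 0.0336), and Tbx4, at 0.260 to 1.55 TPM in mutants, fell by 0.66 ± 0.21 on the log2 scale (SE, limma adjusted p 0.0308).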

How the data were processed

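Total RNA of tail discs from 16 mice was sequenced after rRNA depletion (FastSelect) and NEBNext Ultra II library preparation, per the labels' protocols, while the labels' molecule field reads polyA RNA. The authors deposited 1 table of TPM values for 49315 genes, with each library summing to 1000000. The genome build GRCm38 and bcl2fastq 2.20 are named in the submitters' processing notes, and the aligner, the counter, its strand setting and the annotation are not given in the sources used here. Of the gene IDs, 99.47% were found in GENCODE M21, which gave coordinates and exon lengths.

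From the deposited TPM, the 24188 genes that reached 1 TPM in 3 libraries or more were tested on log2(TPM + 1) with limma 3.58.1 (mean-variance trend, all 16 libraries in 1 fit with a mean per group, R 4.3.3), and p-values were adjusted by Benjamini-Hochberg over all genes tested, with a threshold of 0.05. A change on this scale understates that of low genes. The script was tested on simulated data. Reads were implied from TPM steps and exon lengths. Between 94.17% and 95.0% of values under 20 reads came within 0.05 of a whole number, so limma's voom (scaled by library totals) was run on them as an alternative chosen after seeing the data. These implied reads are approximations, and depth covers counting error only. The intervals come from limma and rest on the spread between mice.

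Values in every library are given for members called in any comparison, for tested members of groups 9 to 13 and for the highest member of each cluster, and the others by range and count. Of each gene list, values are given for at most 4 called genes with the smallest adjusted p and for the highest gene. Members and lists were chosen with earlier results of these data known. Alternatives were another pseudocount, filters, scalings, sample weights, a replicate block, library name, subsets by library name and leaving out each mouse. A mouse's number is only a name unless the labels tie it to others, and they do not. Values of some genes are not reported here.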

Additional observations from a re-analysis of the deposited data

Results flagged for a closer look

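In 11 of 120 groups of 4 or 5 mice, 1 mouse lay far from the others by Dixon's criterion at 95%, which chance gives in about 1 of 20 groups. In intact mutants, mouse 3 was low for Hoxa5 (41.4 TPM, the nearest mouse 54.5), Hoxd4 (4.41, nearest 12.6) and Hoxd8 (63.65, nearest 85.95) and high for Hoxb7 (31.2, nearest 24.4) and Hoxc11 (37.3, nearest 25.6). Intact mutant 2 was low for Hoxb3 (11.5, nearest 14.8). Injured mutant 5 was high for Hoxa3 (21 TPM, nearest 16.7).

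Among injured wild-type mice, mouse 1 was low for Hoxb4 (15.3 TPM, nearest 19.3), mouse 4 was high for Hoxb13 (3.93, nearest 1.85), and mouse 3 was low for Hoxd3 (0.144, nearest 1.53) and for the sum of the Hoxb cluster (192.6, nearest 220.4). Hoxd3 there rests on very few reads.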

How the results depend on the processing

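Under 29 alternative fits, the 18 Hox genes called for injury in mutants kept their direction wherever they were tested, Hoxc4 and Hoxc8 had an adjusted p under 0.05 in limma in all of them, and 11 members, these included, in all but 1 or 2 at most. The count of 18 called members became 3 with mutant libraries named M alone and 10 with those named A8 alone. It became 3 when a log2 change of at least 1 was required as well, which neither Hoxc4 nor Hoxc8 reached in the main fit. The subsets by name were chosen after seeing the data and use fewer mice, and calls over all genes fell from 7438 to 725 and 3583. For the log2 limit the count over all genes is not given here. Leaving out 1 mouse at a time gave 12 (without intact mutant 1) to 20 called members. Calls over all genes were 5787 without intact mutant 1. They were 6687 without intact mutant 3 and 7985 without injured wild-type mouse 3, where 20 members were called. In injured discs the genotype count of 0 became 2 with sample weights and 1 with libraries named M alone. Calls over all genes went from 222 to 1070 and 264 in these fits. Leaving out 1 mouse gave 0 to 6 members there, and 2253 of all genes were called in the fit with 6. The replicate block gave 18 called members for injury in mutants, of which 17 were the same, Hoxa2 being lost (adjusted p 0.0526 in limma). Calls over all genes were 6191 with that block. Mice with the same number did not deviate together over 21 pairs (r from -0.22 to 0.15). These pairs share mice, so this cannot exclude a weak block, and the labels do not tie the numbers. With median-of-ratios scaling 3 members were called higher and 15 lower, and with quantile normalization 2 and 16, so the split moved by over 10 percentage points only in the former. Median-of-ratios scaling moved the sum of paralogue group 4 in injured mutants to 52.99 TPM, of group 7 to 93.97 TPM in intact wild type and 90.67 TPM in intact mutants, and of groups 8 and 10 in intact wild type to 135.6 and 107.3 TPM. Hoxd4 lost its call in 18 settings, and the cause was not tested. Depth limits Hoxd3 and Hoxd13, whose lowest libraries held 1 and 4 implied reads, and 4 injured wild-type mice that differed widely limit what the wild-type comparison could detect.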
